A study of Mus musculus with 2 samples.

Results

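Bone marrow stromal cells taken 3 days after total body irradiation were compared with unirradiated stromal cells on 1 two-colour oligonucleotide array. The irradiated RNA came from C57BL/6 mice that had received 9.5 Gy to the whole body and carried the dye Cy3. The unirradiated RNA came from C57BL/6 mice without irradiation and carried Cy5. The series gives 6 mice in all, and how they were divided or pooled, their age, and how stroma was separated from other marrow cells are not given in the sources used here. A further array held RNA from day 1 after the same dose, and its values are given only beside those of day 3. Both arrays set irradiated against unirradiated RNA, so they may share a control.

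The genes described are all those with a ratio on the day 3 array, 11404 of the 16390 genes named on the platform. Membership does not depend on a gene's value, whereas the genes named were picked by a rule that in part uses their values. A value is the log2 ratio of the 2 channels, averaged over the probes of a gene, with the median over genes set to 0, so that 1 on this scale is a 2-fold difference. With 1 array there is no error from replicates and no p-value, and every statement below is one of size. The spread that could be measured was that between different probes of the same gene, a pooled SD of 0.58 over 116 genes. For 11207 of the 11404 genes the platform held 1 probe, so their values are not averages.

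The labels do not name the numerator of the ratio. Here a positive value is taken to mean more RNA after irradiation, and this direction is likely, not stated. Its basis is the known response of cells to ionising radiation, in which p53 target genes are induced and dividing cells are lost or arrested. The 5 measured genes of a short p53 list (Cdkn1a, Mdm2, Ccng1, Phlda3 and Zmat3) had a median of 1.90, and 75 mitotic genes had a median of -0.90. At day 1 the same p53 genes had a median of 2.23, but 56 of 83 mitotic genes lay above 0, with a median of 0.43. The mitotic genes therefore bear on the direction at day 3 alone, and at day 1 they go against it. These genes are therefore no evidence of their own direction, and if the numerator were the unirradiated channel, higher and lower would swap throughout.

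Marrow stroma is the non-haematopoietic framework of the marrow. It holds reticular cells and pericytes that make factors for stem cells and lymphocytes, sinusoidal and arterial endothelium, adipocytes and bone-forming cells. Total body irradiation at this dose destroys the dividing blood precursors, while adipocytes and vessels are known to change in the days that follow. A preparation of stroma can still hold blood cells. In such bulk RNA, fewer cells of a type and less RNA per cell cannot be told apart.

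Most genes lay close to 0. The central 50% of genes lay between -0.41 and 0.42, and the 5th and 95th percentiles were -1.14 and 1.18. A difference of 2-fold or more was seen upward for 838 genes (7.35%) and downward for 781 (6.85%), together 14.2%, and these shares are the background for every count below. The far ends were unequal. Only 4 genes were at least 8-fold higher, while 50 were at least 8-fold lower. The even split at 2-fold depended on the zero point: of genes past 2-fold, 51.8% were higher with the median gene at 0 and 90.7% with cytosolic ribosomal protein genes at 0, a shift of 0.55.

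The lower end was made up mainly of dividing-cell and erythroid genes. Of the 25 lowest genes, 17 were in the cell cycle or DNA repair lists and 4 in the erythroid lists, and none was in a vessel, lipid or p53 list. The 4 erythroid genes were Car2 (-6.73), a carbonic anhydrase, Hemgn (-5.19), a nuclear protein of haematopoietic cells, and the transcription factors Gfi1b (-4.56) and Gata1 (-3.85). The other 4 genes among the lowest 25 were Aldh1a7 (-4.30), a relative of retinaldehyde dehydrogenase, the amino acid transporter Slc38a5 (-4.20), Dscc1 (-3.97), part of the complex that loads the sliding clamp at cohesion sites, and hepatic lipase, Lipc (-3.41). The upper end was more mixed. Of the 25 highest genes, 7 were in the vessel lists, 4 in the lipid lists, 2 in the p53 lists and 1 in the repair lists. Cxcl13 (5.07), the chemokine that draws B cells into follicles, stood far above the next, and 6 of the 25 had no ratio at day 1.

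Most genes of DNA replication were lower. Before S phase, origins are licensed when the Mcm2-7 helicase is loaded by Cdc6 and Cdt1, and geminin (Gmnn) holds Cdt1 in check. Of 23 origin genes, 18 were lower by 2-fold or more, 11 of them at least 4-fold, and none was higher, with a median of -1.94. The 6 helicase subunits were all lower and spanned a wide range, from Mcm5 (-4.42) and Mcm2 (-3.14) through Mcm7 (-2.39) and Mcm3 (-2.31) to Mcm6 (-1.77) and Mcm4 (-1.61). Gmnn was at -3.68, Cdt1 at -3.05 and Cdc6 at -2.30. The origin recognition complex was divided. Orc1 (-2.33), Orc2 (-1.34) and Orc6 (-1.18), named after their values were seen, were lower, and Orc4 (0.68), Orc3 and Orc5 (both -0.48) lay within 2-fold, as did Cdc7 (0.90), the kinase that fires origins.

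At the fork, 18 of 30 genes were lower by 2-fold or more and none higher, with a median of -1.29. The flap endonuclease Fen1 was at -3.29, the polymerase epsilon subunit Pole2 at -2.77, the histone chaperone subunit Chaf1b at -2.43 and DNA ligase Lig1 at -2.34. The sliding clamp Pcna was within 2-fold at -0.68. Of 20 genes that supply nucleotides, 12 were lower and none higher. Thymidine kinase Tk1 stood at -4.40 and the 2 subunits of ribonucleotide reductase at -3.38 (Rrm2) and -2.01 (Rrm1). The p53-inducible subunit Rrm2b (0.41), the mitochondrial kinase Tk2 (0.65) and the nucleotide hydrolase Samhd1 (0.80) were the 3 on the other side of 0.

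Of 23 cyclin and kinase genes, 6 were lower by 2-fold or more and 2 higher, or 5 and 5 with ribosomal protein genes at 0. Among cyclins of S phase and mitosis, Ccna2 was at -4.50, Ccne2 at -3.11, Ccnb2 at -3.10 and Ccne1 at -2.61, with the mitotic kinase Cdk1 at -3.27. The G1 genes Cdk6 (0.05), Cdk2 (-0.10), Ccnd3 (-0.34) and Cdk4 (-0.91) were within 2-fold, and Ccnd2 stood at 1.07. Among 8 listed inhibitors with a ratio, Cdkn1a was at 1.90 and Cdkn2a at 0.86, while Cdkn2c (-0.16) and Cdkn1c (-0.67) were near 0. The 1 lower by 2-fold or more was Cdkn3 (-1.95), and no ratio was given for Cdkn1b. Of the E2F factors, E2f1 (-2.13) and E2f4 (-2.14) were lower, and E2f2 (-0.55) and E2f3 (-0.69) were within 2-fold.

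Mitotic genes were lower in part. Of 23 kinesin and spindle genes, 14 were lower by 2-fold or more and 12 of these at least 4-fold, and the remaining 9 were within 2-fold. The lowest were the spindle protein Nusap1 (-4.03), the chromokinesin Kif4 (-3.53) and the kinetochore protein Kntc1 (-3.50), which was counted in this list. Kif20a and Kif11 (both -3.36), which act in cytokinesis and spindle bipolarity, came next. The list also holds kinesins that carry cargo in resting cells, and Kif13b (0.82) and Kif3a (0.38) were among the 4 highest. Of 27 kinetochore genes, 12 were lower, among them the centromeric histone Cenpa (-3.58), Cenph (-3.25), Cenpk (-3.05) and the checkpoint protein Mad2l1 (-2.60). Members of one complex did not always move together. In the Ndc80 complex, Nuf2 was at -2.67 and Spc25 at 0.18, and among chromosomal passengers Birc5 was at -4.70, Incenp at -0.34 and Aurkb at -0.14. Of 25 mitotic kinase and anaphase genes, 11 were lower, with Pbk at -4.05, Tpx2 at -3.46, Melk at -3.40, Aurka at -2.84 and Plk1 at -1.62. The 3 higher members were Plk2 (2.27) and Plk3 (1.69), kinases induced by stress, and securin, Pttg1 (1.18).

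Chromosome structure genes were mixed. Of 16 genes in the condensin and cohesin list, which also holds other chromosome genes, 4 were lower by 2-fold or more. They were Mki67 (-3.61) and topoisomerase Top2a (-3.24), part of neither complex, the cohesin regulator Cdca5 (-3.34) and the condensin subunit Ncapd2 (-2.09). The condensin subunit Ncaph was at 0.27 and the cohesin genes Stag1 and Pds5a at 0.30 and 0.37. Among histone variants and chromatin genes, 10 of 25 were lower and none higher. These included Uhrf1 (-3.56) and Dnmt1 (-2.09), which copy DNA methylation to the new strand, the helicase Hells (-2.69), and the chromatin proteins Hmgb3 (-2.34) and Hmgb2 (-1.97). Replication-dependent histone probes ranged from H2ac4 (-4.53) to H2bc22 (1.37), with 5 of 13 lower and 1 higher. These genes are near-identical copies that probes may not tell apart.

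**Figure D1:**
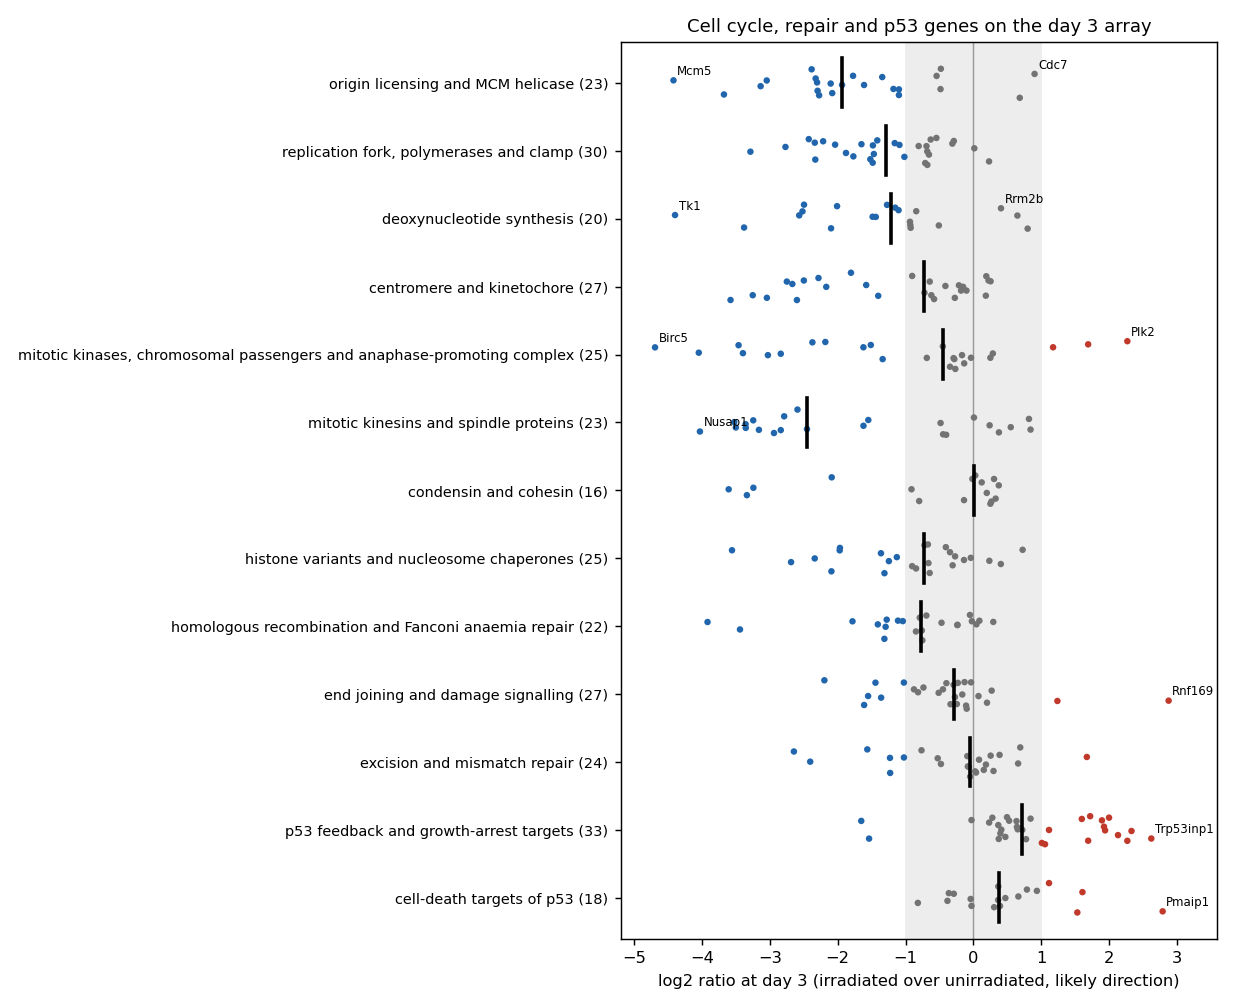
Log2 ratio at day 3 (x axis) of each measured gene of 13 lists of cell cycle, repair and p53 genes, 1 point per gene, with the number of genes in brackets and the list median as a black bar. The grey band marks less than 2-fold, blue points are lower by 2-fold or more and red points higher by 2-fold or more. Origin, fork, nucleotide and kinesin genes lie mostly left of the band and p53 targets mostly to the right of 0.

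Promoter letters were set beside these values, using promoters of 300 bases (250 before and 50 after the start) from RefSeq on build GRCm38.p6. A promoter was held for 9151 of the 11404 genes, and the first listed start of each gene was used. Each motif was searched on both strands. The cell cycle genes homology region (CHR), TTTGAA, is bound by the MuvB complex in mitotic genes. The CCAAT box, CCAAT, is bound by NF-Y, and E2F sites were searched in 2 forms, TTGGCGC and TTCCCGC. The stretches below are shown because they belong to 4 of the 25 lowest genes and carry these letters, in capitals in either orientation, 5′ to 3′ along the gene. In Kntc1 the CCAAT box and the CHR share 1 base.
Mcm5: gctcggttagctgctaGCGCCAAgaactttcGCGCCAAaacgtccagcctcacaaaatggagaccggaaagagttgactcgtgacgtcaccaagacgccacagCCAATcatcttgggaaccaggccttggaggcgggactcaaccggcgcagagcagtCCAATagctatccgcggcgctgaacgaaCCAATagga
Mki67: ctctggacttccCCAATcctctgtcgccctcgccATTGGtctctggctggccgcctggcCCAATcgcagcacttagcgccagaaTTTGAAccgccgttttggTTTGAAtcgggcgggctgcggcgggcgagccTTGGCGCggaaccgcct
Cenpa: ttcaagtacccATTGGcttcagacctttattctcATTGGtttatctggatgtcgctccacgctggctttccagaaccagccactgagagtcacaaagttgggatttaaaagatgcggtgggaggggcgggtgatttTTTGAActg
Kntc1: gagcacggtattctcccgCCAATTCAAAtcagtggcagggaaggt

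The Mcm5 stretch lies at chr8:75109329-75109523 on the plus strand and holds 2 E2F letters and 3 CCAAT boxes. That of Mki67 lies at chr7:135716430-135716579 on the minus strand and holds 2 CHR, 3 CCAAT and 1 E2F match. The Cenpa stretch is at chr5:30666766-30666910 and that of Kntc1 at chr5:123749696-123749740, both on the plus strand with 1 CHR each. The Mki67 stretch ends before the annotated transcription start, and the other 3 cross it by a few bases.

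Among bins of the day 3 ratio, the share of promoters with these letters was highest in the bin of the lowest genes. CHR was found in 41.5% of 41 promoters of genes at -3 or below, against 12.5% of all 9151 promoters and 12.7% of 63 promoters of genes at 2 or above. The CCAAT box was found in 61.0% of the lowest set and 38.1% of all. An E2F site of either form was found in 26.8% of the lowest set, 11.4% of all and 4.76% of genes at 2 or above. Shares also varied between cell cycle lists, with no test of the differences. Of 19 promoters in the kinesin and spindle list, which includes Kntc1, 12 held CHR and 1 an E2F site. Of 19 promoters of mitotic kinases, 6 held CHR and 0 an E2F site. An E2F site was held by 55.6% of 18 origin promoters and 56.0% of 25 fork promoters, of which 5 and 2 held CHR. Other lists held both motifs. Of 27 kinetochore promoters, 9 held CHR and 7 an E2F site. Of 11 promoters in the list of condensin, cohesin and other chromosome genes, 4 held CHR and 7 an E2F site. CHR letters were not confined to low or cell cycle genes. They were found in 38.0% of 142 promoters of olfactory receptor genes and in 18.1% of the 27025 promoters held, with or without a ratio. Among the 25 lowest genes, Mki67, Cenpa, Kif4, Kntc1 and Lipc held CHR. Among the 25 highest, Cxcl13, Ces2e, Rnf169, Sema3g and Cd36 held it. The lowest set was chosen by its values and consists largely of cell cycle genes, and letters in a window do not show that a factor binds.

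**Figure D2:**
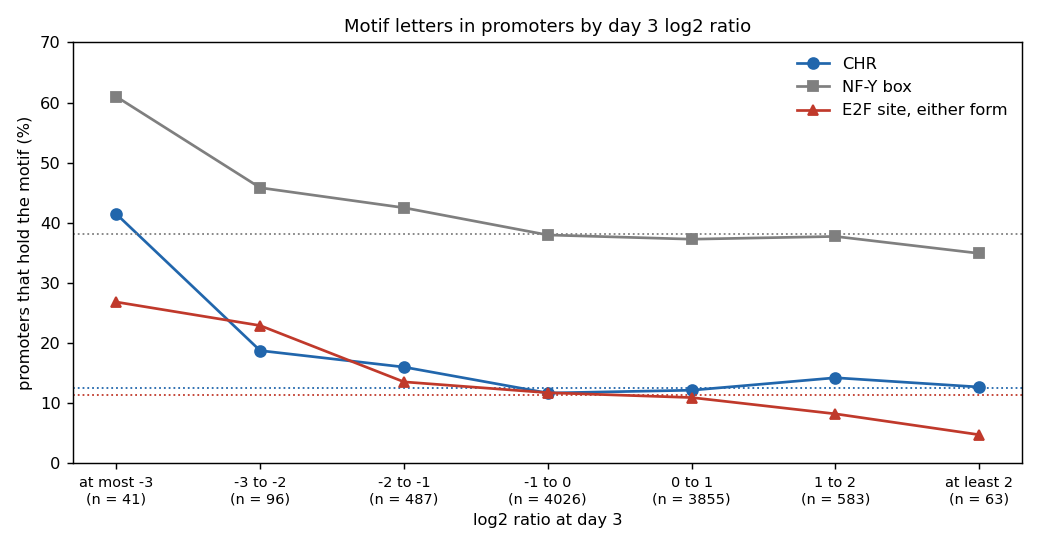
Percent of promoters (y axis) that hold the CHR, the NF-Y box (the CCAAT box) or an E2F site of either form, in bins of the day 3 log2 ratio (x axis), with the number of promoters in each bin. Dotted lines give the share over all 9151 promoters. The share with CHR is 41.5% in the lowest bin and between 11.7% and 18.8% in all others.

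DNA repair genes were lower in part, and differences between pathways were not tested. In homologous recombination, which works on replicated chromosomes, Rad51ap1 was at -3.92, Rad54l at -3.44, Brca2 at -1.78, Brca1 at -1.41 and Blm at -1.11, and 9 of 22 genes in this list were lower by 2-fold or more with none higher. In end joining and damage signalling, 6 of 27 were lower and 2 higher, or 3 and 2 with ribosomal protein genes at 0. The lowest were the checkpoint kinases Chek1 (-2.20) and Chek2 (-1.61), the clamp subunit Rad9a (-1.55) and the end-binding protein Ku70, Xrcc6 (-1.44), whose partner Xrcc5 was at -0.13. The kinases Atm (-0.40), Atr (-0.23) and Prkdc (-0.10) and ligase Lig4 (-0.27) were within 2-fold. Rnf169 (2.88), a ubiquitin ligase homologue that binds chromatin at breaks, and the break scaffold Mdc1 (1.24) were higher. Of 24 excision and mismatch genes, the uracil glycosylase Ung (-2.65) and Neil3 (-2.41) were lowest, and Mgmt (1.67), which repairs alkylated guanine, was the 1 higher gene. The p53-regulated recognition factors Ddb2 (0.30) and Xpc (0.15) were near 0.

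Targets of p53 were higher in part. Of 33 feedback and arrest genes, 14 (42.4%) were higher by 2-fold or more and 2 lower. Beside Trp53inp1 (2.62) and Ccng1 (1.94), Dcxr (2.33), a carbonyl reductase, and Phlda3 (2.13), an inhibitor of Akt signalling, were among the 4 highest. The feedback phosphatase Ppm1d (0.65), Btg2 (0.64), Gtse1 (0.28) and Sesn2 (-0.03) were within 2-fold. The 2 lower genes were Cgref1 (-1.54) and Dyrk3 (-1.65), a kinase of erythroid cells. Of 18 death genes, 4 were higher: Pmaip1 (2.79), the death receptor Fas (1.61), Epha2 (1.53) and Ei24 (1.12). Puma, Bbc3, stood at 0.79, and Tnfrsf10b (-0.04), Apaf1 (-0.36) and Bid (-0.29) were near 0.

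Of 14 Bcl2 family genes, Pmaip1 was the 1 gene past 2-fold. The survival genes Bcl2l1 (0.92) and Mcl1 (0.88) were within it, and Bcl2 (0.32) rested on 2 probes that disagreed, at 1.47 and -0.83. Of 21 caspase and inhibitor genes, Xiap (1.65), which blocks caspases, and the necroptosis effector Mlkl (1.14) were higher, and the inflammasome adaptor Pycard (-1.07) was lower. Among secreted factors linked to senescence, 11 of 33 were higher and 1 lower. Mmp9 (1.99), Cxcl2 (1.73), Igfbp4 (1.71) and the protease Plau (1.64) stood at the top, Igfbp3 was at 1.33, Mmp3 at 0.01 and the lamin gene Lmnb1 at -0.85.

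Of 18 erythroid transcription factor and receptor genes, 8 were lower by 2-fold or more. Below Hemgn, Gfi1b and Gata1 came the iron sensor Tfr2 (-2.06), the erythropoietin receptor Epor (-1.79) and Tal1 (-1.14). The 3 higher genes, Gata2 (1.87), Kit (1.18) and Bach1 (1.05), act also outside the red lineage. Of 31 haem and iron genes, 9 were lower and 4 higher, or 4 and 7 with ribosomal protein genes at 0. In haem synthesis, the cytosolic and mitochondrial enzymes Alad (-2.74), Cpox (-2.38), Uros (-1.90), Urod (-1.37) and the erythroid first enzyme Alas2 (-1.14) were lower, and Fech (-0.56) and the iron importer Slc25a37 (-0.24) were within 2-fold. The 4 higher genes were the mitochondrial transporter Abcb10 (1.75), haem oxygenase, Hmox1 (1.59), the iron exporter Slc40a1 (1.31) and the ferroxidase Heph (1.24). Biliverdin reductase Blvrb, which acts after haem oxygenase in haem breakdown, was at -2.25. Of 16 red cell membrane and enzyme genes, 7 were lower, from Car2 to Tspan33 (-2.83), Add2 (-2.12) and Epb42 (-1.60). The anion exchanger Slc4a1 was at -0.78, and the erythroid factor Klf1 had no ratio.

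Of 19 platelet genes, 6 were higher and 3 lower, or 6 and 0 with ribosomal protein genes at 0. The 3 lower were the platelet chemokines Pf4 (-1.39) and Ppbp (-1.12) and the integrin Itga2b (-1.04). The higher ones included Mrvi1 (1.81), Selp (1.48), Thbs1 (1.34) and Nbeal2 (1.20), and vessel wall cells also express some of these, such as Selp and Thbs1.

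Neutrophil genes of the later granules were spread widely. Of 23, 8 were lower by 2-fold or more, 5 higher and 10 within 2-fold, with a median of -0.50. With ribosomal protein genes at 0, 6 were lower and 8 higher, with a median of 0.04. The lowest were the antimicrobial peptide Camp (-3.19), Chil3 (-2.67), Ngp (-2.43), the oxidase subunit Ncf1 (-2.22), lactoferrin, Ltf (-2.02), and S100a8 (-2.01). The specific and gelatinase granule proteins Lcn2 (-0.70) and Mmp8 (-0.50) were within 2-fold, and Mmp9 (1.99), Hp (1.30) and Cybb (1.23), which other cells also make, were higher. In the list for the early, azurophil stage, 7 genes had a ratio. Ctsg was at -1.62, Prtn3 at 0.22 and Fcnb at -0.22. The 2 higher genes were the factor Gfi1 (1.06) and Igfbp4 (1.71). Igfbp4 is not specific to neutrophils and is also in the reticular stromal, senescence and insulin-like growth factor lists. At day 1 the later-stage list had a median of 5.89 over 31 genes.

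Macrophage genes were higher or near 0. Of 31 genes of resident macrophages, 11 (35.5%) were higher by 2-fold or more and none lower, with a median of 0.67. The complement genes C1qb (1.49), C1qa (0.81) and C1qc (0.67), whose products form 1 molecule, were on the same side, as were the haemoglobin scavenger receptor Cd163 (0.82) and the mannose receptor Mrc1 (0.42). Csf1r was at -0.20 and Msr1 at -0.11. Cd36 (2.59) and Lpl (2.24) headed the list and are also genes of adipocytes and capillaries. Of 18 monocyte and dendritic genes, Cx3cr1 (1.37), Cd14 (1.17) and Itgax (1.15) were higher, and the dendritic factors Batf3 (-2.15) and Zbtb46 (-1.35) lower. Eosinophil granule protein Prg2 stood at -2.47, and the mast cell and basophil proteases Cpa3 (0.41), Mcpt8 (-0.01) and Prss34 (-0.33) were near 0.

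Lymphoid genes were thinly measured. Of 27 B lineage genes on the array, 11 had a ratio, and 4 of these were lower by 2-fold or more: Vpreb3 (-3.34), the receptor subunit Cd79b (-2.95), Cd37 (-1.33) and Mzb1 (-1.16). The factor Ebf1 (0.61), also expressed in stroma, was the highest. Of 32 T and NK genes, 12 had a ratio, and the coreceptors Cd8a (0.78) and Cd4 (0.34) and the receptor chain Cd3d (0.68) were within 2-fold. Ctla2a (2.80) was the 1 gene past it. The median of 18 genes common to all leukocytes was -0.25 (0.30 with ribosomal protein genes at 0). The lowest of these were the GTPase Rac2 (-3.09), Ikzf1 (-1.88) and Coro1a (-1.40), while Itgb2 (0.93) and Tyrobp (0.71), high in macrophages, were the 2 highest. No ratio was given for Ptprc or Cd53.

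**Figure D3:**
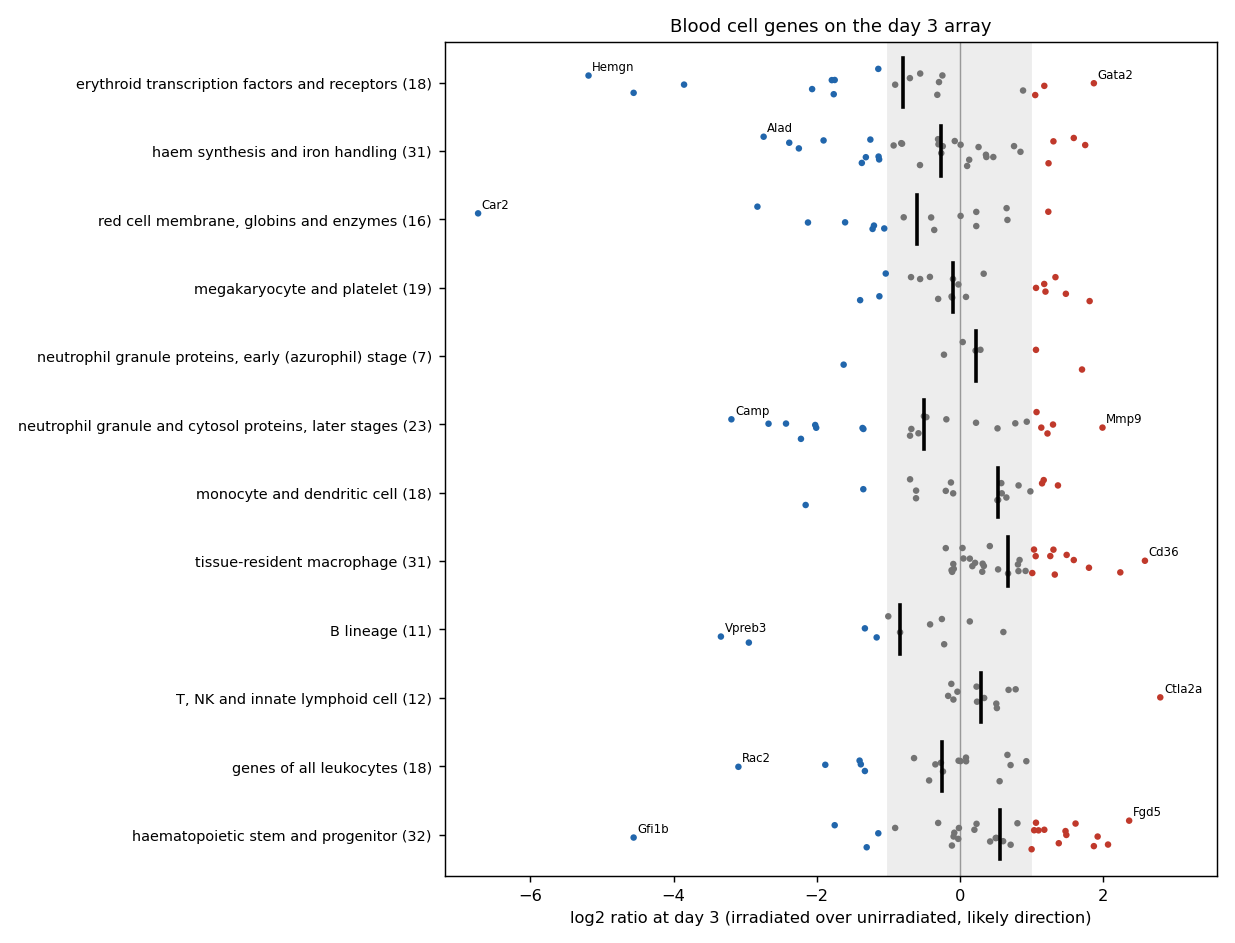
Log2 ratio at day 3 (x axis) of each measured gene of 12 lists of blood cell genes, 1 point per gene, with the number of genes in brackets and the median as a black bar. The grey band marks less than 2-fold. Erythroid, late neutrophil and B lineage genes reach far to the left, and none of the 31 resident macrophage genes lies left of the band.

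Of 32 genes listed for stem and progenitor cells, 13 were higher by 2-fold or more and 4 lower. The 4 highest were Fgd5 (2.37), Tek (2.07), Mecom (1.93) and Gata2 (1.87), all also expressed by endothelium, followed by Slamf1 (1.38) and Kit (1.18). Procr (0.61), Hlf (0.42) and Cd34 (-0.02) were within 2-fold. The 4 lower genes were the factors Gfi1b, Lyl1 (-1.75), Erg (-1.30) and Tal1 (-1.14), and the last 3 are also in the list of endothelial factors.

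Endothelial identity genes had the largest share of higher genes among the 89 lists. Of 46 identity and junction genes, 39 (84.8%) were higher by 2-fold or more, 11 of them at least 4-fold, and none was lower, with a median of 1.58. This list shares 4 measured genes with the lists for all leukocytes, platelets, stem and progenitor cells, monocytes and dendritic cells, and resident macrophages. Without them 36 of 42 were higher with a median of 1.59. Overlap with the other blood cell lists was not examined. At the top were the matrix protein Mmrn2 (2.64) and the phosphatase Ptprb (2.60), which acts on Tie2 and VE-cadherin, followed by Flt1 and Pecam1 (2.33). Sialomucin Emcn was at 1.98, Esam at 1.62, Cldn5 at 1.504 and Cdh5 at 1.47. Only 4 of the 50 named genes had no ratio. The 4 lowest were Cd34 (-0.02), Cgnl1 (-0.03), the adrenomedullin receptor Calcrl (-0.07) and Exoc3l2 (0.30).

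Arterial and sinusoidal genes were both on the higher side, to different extents. Of 30 arterial genes, 18 (60.0%) were higher by 2-fold or more. Sema3g (2.80), Sox17 (2.25), endothelin, Edn1 (2.21), and Jag1 (2.13) headed these, with Dll4 at 1.76, Efnb2 at 1.54, the connexin Gja4 at 1.53 and Bmx at 1.37. Unc5b (-0.81) and Alpl (-0.93) were the lowest. Of 28 sinusoidal and scavenging genes, 8 (28.6%) were higher. The hyaluronan receptors Stab2 (1.82) and Stab1 (1.33) and the Fc receptor Fcgr2b (2.04) were among them, and Flt4 (0.66) and Lyve1 (0.32) were within 2-fold. The difference between the lists has no test.

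Transcription factors of endothelium did not all follow. Bcl6b (2.46), Sox17, the hypoxia factor Epas1 (2.03) and Sox7 (2.02) were the 4 highest of 32, with Sox18 at 1.53 and Fli1 at 1.18. Erg (-1.30), Tal1 and Lyl1 were lower, and Lmo2 was at -0.90. Of 28 genes of the VEGF and angiopoietin systems, 13 were higher and none lower. The ligands Vegfa (1.26) and Vegfc (1.18) and the receptors Flt1 and Kdr (1.36) were higher, whereas Vegfb (-0.64) and placental growth factor, Pgf (0.16), were within 2-fold. Angpt1 (1.04) and its antagonist Angpt2 (0.81) were close to each other, and their receptor Tek stood at 2.07. The peptide ligand Apln was at 2.02.

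Notch pathway genes were higher in part, 9 of 32 with 1 lower and a median of 0.34. The ligands Jag1, Dll4, Dll1 (1.56) and Jag2 (1.39), the receptors Notch1 (1.73) and Notch4 (1.69) and the targets Hes1 (1.86) and Hey2 (1.998) were all higher by 2-fold or more, and Hey1 was at 0.95. With Mfng (1.29), a glycosyltransferase that modifies Notch, named after its value was seen, these were the 9 higher genes. The pericyte receptor Notch3 was at 0.38, and Dtx1 (-1.25), a lymphoid regulator, was the 1 lower gene. Among guidance genes, 8 of 48 were higher, led by Sema3g, Robo4 (2.27), Efnb2 and Epha2, and 2 were lower, Plxna1 (-1.38) and Plxnb3 (-1.14).

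Of 38 pericyte and smooth muscle genes, 17 (44.7%) were higher by 2-fold or more, none was lower and 21 were within 2-fold. Rgs5 (2.59), smooth muscle myosin Myh11 (2.51), the neuropeptide receptor Npy1r (2.35), Tagln (2.14) and actin Acta2 (1.70) were among them. The growth factor receptors Pdgfrb (0.20) and Pdgfra (-0.22) and the proteoglycan Cspg4 (-0.14) were near 0. Pdgfrb and Cspg4 were among the 6 markers set for pericytes and smooth muscle, so those markers did not move together.

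Reticular stromal genes, the cells for which the preparation is named, lay closer to 0. Of 36 genes, 8 were higher by 2-fold or more and none lower. Gas6 (2.20), Eng (1.79), Mcam (1.78) and Igfbp4 (1.71) were the highest, and vessels express the first 3 of these as well. Among the 7 defining markers, the leptin receptor Lepr was at 1.27, Cxcl12 at 0.74, Foxc1 at 0.29, Pdgfrb at 0.20, Pdgfra at -0.22 and Ebf3 at -0.42, and no ratio was given for Nes. Of 32 niche factor genes, 11 (34.4%) were higher and 2 lower. Beside Cxcl13, the Notch ligands, Il7 (1.41) and Angpt1, the growth factor Csf1 was at 0.49 and Vcam1 at 0.92. The 2 lower genes were the cytokines Il11 (-1.19) and Osm (-1.04), and Kitl had no ratio.

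Of 34 genes of fatty acid uptake and oxidation, 29 were within 2-fold, with a list median of 0.05, and 5 were higher, all at least 4-fold: the binding proteins Fabp5 (2.85) and Fabp4 (2.44), the transporter Cd36 (2.59), lipoprotein lipase Lpl (2.24) and its capillary anchor Gpihbp1 (2.33). The next highest of that list was below 2-fold. Of 22 lipid droplet and lipolysis genes, 7 were higher and none lower, among them Plin1 (3.27), the carboxylesterase Ces2e (2.96), the glycerol channel Aqp7 (1.69), the lipase inhibitor G0s2 (1.41) and the triglyceride lipase Pnpla2 (1.31). Plin2 (0.67) and Lipe (0.57) were within 2-fold. Of adipocyte identity genes, 9 of 32 were higher, with Sncg (2.28), the master factor Pparg (2.24), Prdm16 (2.21) and the complement protease Cfd (1.10), while Cebpa was at 0.29 and Car3 at -1.20.

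Of 34 genes of fatty acid and triglyceride synthesis, 29 were within 2-fold, 3 higher (8.82%) and 2 lower (5.88%), near the 7.35% and 6.85% of all genes. Acly (-0.07), Acaca (-0.15), Scd1 (-0.28), Fasn (-0.39) and Scd2 (-0.65) were within 2-fold, and the desaturase Fads2 (-2.23) and acetate ligase Acss1 (-2.07) were lower. The triglyceride synthesis enzymes Dgat2 (1.44) and Gpat3 (1.31) and the lipogenic regulator Thrsp (1.32) were the 3 higher genes. Of 34 cholesterol genes, 4 were higher (11.8%) and 2 lower (5.88%), with a median of 0.06. The synthesis enzymes Fdft1 (-1.82), Nsdhl (-1.13), Sqle (-0.98) and Cyp51 (-0.82) were the lowest, and the master regulator Srebf2 was at -0.63. The highest were the sterol exporter Abcg1 (2.07), Mylip (1.93), which degrades the LDL receptor, the cholesterol hydroxylase Ch25h (1.26) and the lipid carrier Apoe (1.01).

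Bone genes moved both ways. Of 38 osteoblast genes, 11 (28.9%) were lower by 2-fold or more and 3 higher, with a median of -0.23. With ribosomal protein genes at 0, 4 were lower and 8 higher, with a median of 0.32. The lowest were Ifitm5 (-2.63), specific to bone-forming cells, and the mineralisation genes Smpd3 (-2.05), Phospho1 (-1.89) and Slc13a5 (-1.77), ahead of Col1a1 (-1.50). Alpl was at -0.93, the lineage factor Runx2 at -0.04 and Ibsp at 0.27. The 3 higher genes were the small proteoglycans Omd (1.45) and Ogn (1.20) and Cd200 (1.05). Of 30 cartilage genes, 8 were lower and none higher, or 3 and 3 with ribosomal protein genes at 0. The lowest were the hypertrophic collagen Col10a1 (-2.61), Matn1 (-2.57), Snorc (-1.76) and aggrecan, Acan (-1.45), while Sox9 was at -0.26. Osteoclast genes stayed near 0: Calcr was at 0.71, Ctsk at 0.51 and Acp5 at 0.24, with Mmp9 higher and Car2 lower of 24.

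Of 35 genes of fibrillar collagens and their modifying enzymes, 6 were lower by 2-fold or more and none higher, with a median of -0.43. With ribosomal protein genes at 0, none was lower and 5 were higher, with a median of 0.12. The 2 chains of type I collagen were alike, Col1a1 at -1.50 and Col1a2 at -1.37, while Col3a1 (-0.25), Col5a2 (-0.28) and Col5a1 (0.21) were near 0. Basement membrane genes had a median of 0.51 over 22 genes. The type IV chains Col4a1 (0.62) and Col4a2 (0.89), Lama4 (0.63) and Nid1 (0.63) were each within 2-fold on the higher side, and Sparc (-1.12) was the 1 lower gene. Of 37 metalloproteinases and inhibitors, Timp4 (2.20), Mmp9 and Adamts15 (1.86) were highest, and Timp1 (-0.73) was on the other side of 0 from Timp3 (1.18) and Timp2 (0.63).

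**Figure D4:**
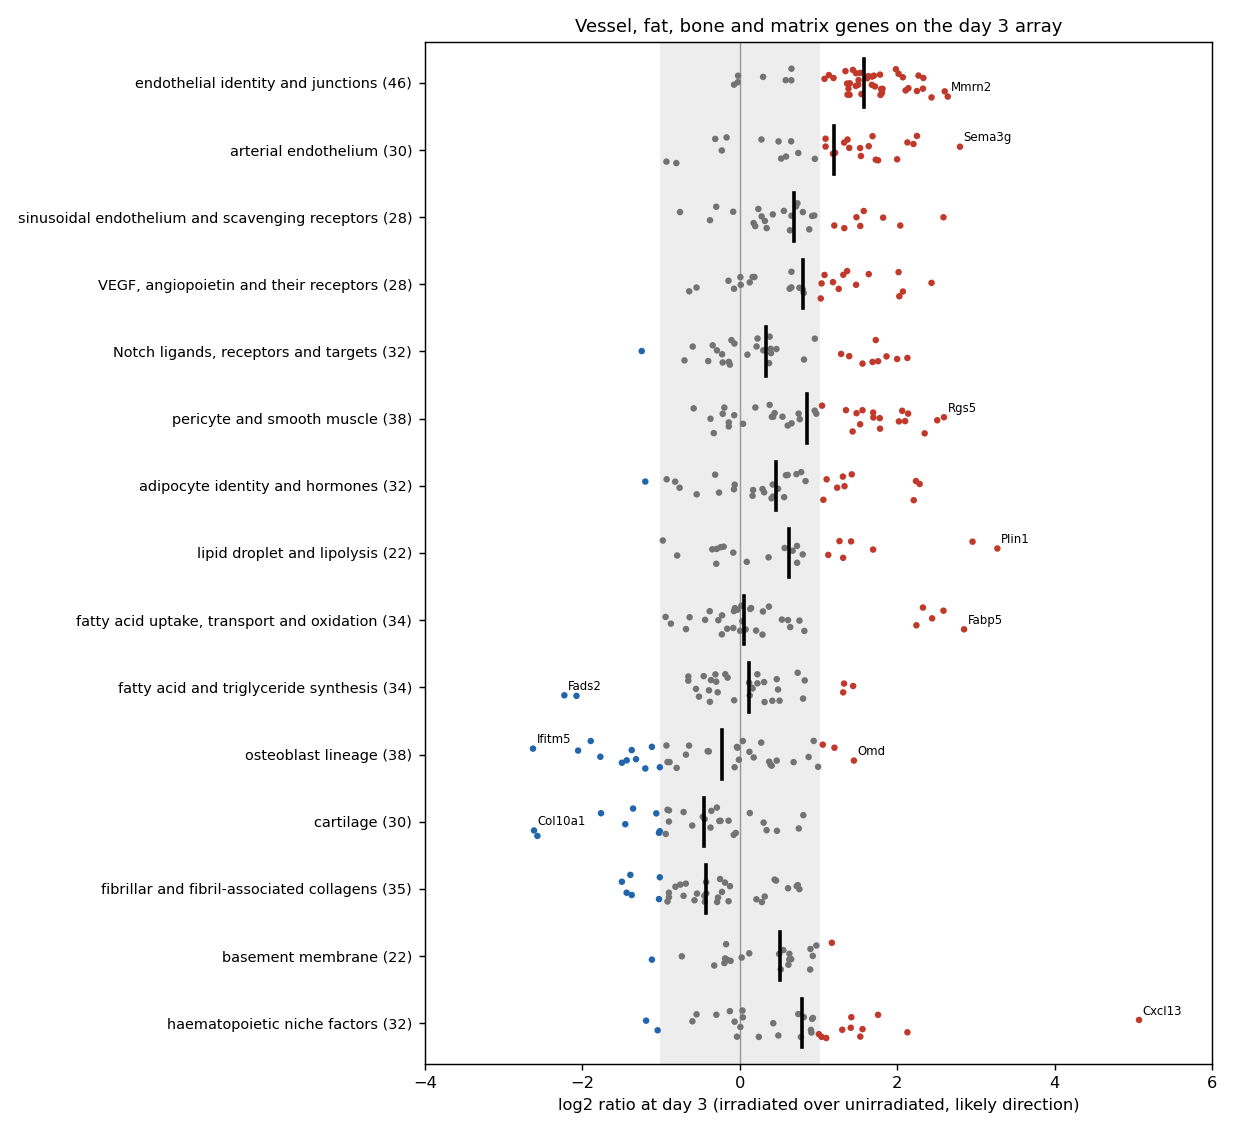
Log2 ratio at day 3 (x axis) of each measured gene of 15 lists of vessel, fat, bone, matrix and niche genes, 1 point per gene, with the number of genes in brackets and the median as a black bar. The grey band marks less than 2-fold. Of 46 endothelial identity genes 39 lie right of the band, and fatty acid uptake shows 5 genes far to the right of the other 29.

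Signalling lists differed in their medians. The insulin-like growth factor list stood at 0.66, with 13 of 15 genes above 0 and 3 higher by 2-fold or more, Igfbp4, the growth hormone receptor Ghr (1.43) and Igfbp3. In the Wnt list, with a median of 0.11, 5 of 46 were higher (10.9%) and 4 lower (8.70%), against 7.35% and 6.85% of all genes. The R-spondin receptor Lgr4 (2.15), Fzd6 (1.38), the antagonist Sfrp1 (1.37) and Fzd4 (1.13) were the highest, and Rspo4 (-2.89), Wnt11 (-1.53), Wnt6 (-1.28) and Lef1 (-1.21) the lowest. Follistatin, Fst (2.45), an inhibitor of activin, was the highest of 45 TGF-beta and BMP genes, and its target ligand Inhba was at 0.68. The co-receptors Eng and Tgfbr3 (1.62) and Id4 (1.58) were also higher, and Bmp3 (-1.24) was the 1 lower gene. Of 35 growth factor genes, the feedback inhibitors Spry2 (1.58), Spry4 (1.53) and Dusp6 (1.34) and the receptor Fgfr2 (1.30) were the highest, and the ligand Hgf was at 1.00.

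Among chemokines of the CXC class, Cxcl9 (1.79), Cxcl2 (1.73) and Cxcl10 (1.23) were higher beside Cxcl13, and Cxcl1 was at 0.87. Cxcr5, the receptor for Cxcl13, was at -0.19. Of 10 CC chemokines, Ccl3 (1.11) was higher and Ccl22 (-1.40) lower. Of 45 interleukin genes, 6 were higher and 3 lower. The interleukin-1 antagonist Il1rn (2.31) was highest, Il6 (1.42) and Il7 followed, Il1b was at 0.68 and Il33 at -0.62, and Il17b was lowest at -2.59. In the TNF family, the p53 target Eda2r (2.001), Fas, the B cell survival factor Tnfsf13b (1.30) and Tnfsf9 (1.08) were the 4 higher genes of 25, and Tnf (0.12) and Tnfsf11 (0.04) were near 0.

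Of 50 interferon-induced genes, 43 lay above 0 with a median of 0.69, 14 were higher by 2-fold or more and 1 was lower. Ifi44 (2.56), the GTPase Gbp6 (2.27), the RNA-sensing kinase Eif2ak2 (1.95) and Ifit3 (1.80) were the highest, and Mx1 (-0.04) and Irf7 (0.69) were within 2-fold. Of 23 complement genes, 19 lay above 0 and 3 were higher, C1qb, clusterin, Clu (1.29), and Cfd. Of 20 antigen presentation genes, 18 lay above 0. Of these the checkpoint ligand Cd274 (1.87), the protease Ctss (1.80), Tap2 (1.33) and Cd1d1 (1.12) were higher by 2-fold or more. The class II regulator Ciita (-1.41) was lower, with the class II chain H2-Aa at -0.75 and Cd74 at 0.18.

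The protein-making and energy machinery shifted as blocks by less than 2-fold. The median of 53 cytosolic ribosomal protein genes was -0.55, and 51 of them lay below 0, from Rpl38 (-1.93) to Rpl10 (0.45). Ribosome biogenesis and translation genes had a median of -0.54 over 46, with 10 lower by 2-fold or more, among them the nucleolar methyltransferase Fbl (-1.52), Nhp2 (-1.37) and Bysl (-1.32). Oxidative phosphorylation genes stood at a median of -0.42 over 78 with 2 past 2-fold, Atp5o (-1.97) and Atp5g1 (-1.19). Proteasome genes stood at -0.41 over 42 with none past 2-fold. With ribosomal protein genes at 0 the medians of the last 3 lists became 0.00, 0.12 and 0.14. Within the proteasome, the interferon-inducible subunits Psmb8 (0.91), Psmb9 (0.77) and Psmb10 (0.42) were the 3 highest. The constitutive counterpart of Psmb8, Psmb5, was at -0.70.

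Of 54 NRF2 and antioxidant genes, 4 were higher and 4 lower, 7.41% each and close to the 7.35% and 6.85% of all genes. Hmox1, Gsta4 (1.23), Gstm4 (1.12) and the cystine transporter Slc7a11 (1.11) were higher, while Nqo1 (-0.44), Gclc (-0.42) and Gclm (-0.82) were within 2-fold. Aldh1a7 and Aldh1a1 (-1.98), similar genes whose probes may not tell them apart, and the red cell peroxidase Prdx2 (-1.22) were lower. In the unfolded protein list, genes of serine and asparagine synthesis were lowest, Psat1 at -2.63 and Asns at -2.06, and Ddit3 (0.34), Hspa5 (0.30) and Atf4 (0.18) were near 0. Of 37 immediate early genes, 3 (8.11%, near the share of all genes) were higher, Ier5 (1.27), Nr4a2 (1.25) and Ier3 (1.04), and none was lower. In the circadian list, Arntl (-1.01) was lower and Cry1 (1.04) and Rora (1.03) higher of 18, and no source used here gives the hour of sampling. Of 22 glucocorticoid-induced genes, 5 were higher, with the activating enzyme Hsd11b1 at 1.73, Fkbp5 at 0.65 and Tsc22d3 at 0.38. Common reference genes ranged from Ppia (-1.18) through Actb (-0.26) and Gapdh (0.09) to B2m (0.37).

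As a measure of how often genes foreign to the tissue pass 2-fold on this array, olfactory receptor genes, which serve sensory neurons, were counted. Of 654 named, 172 had a ratio, and 15 of these were higher by 2-fold or more and 15 lower, or 17.4%. That share is above the 14.2% of all genes. The most extreme, Olfr348 at 2.16 and Olfr399 at -1.67, show the size that such genes reached. For single genes of other lists that lie between these values, the same size was thus also seen among receptors that the tissue is not known to use.

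**Figure D5:**
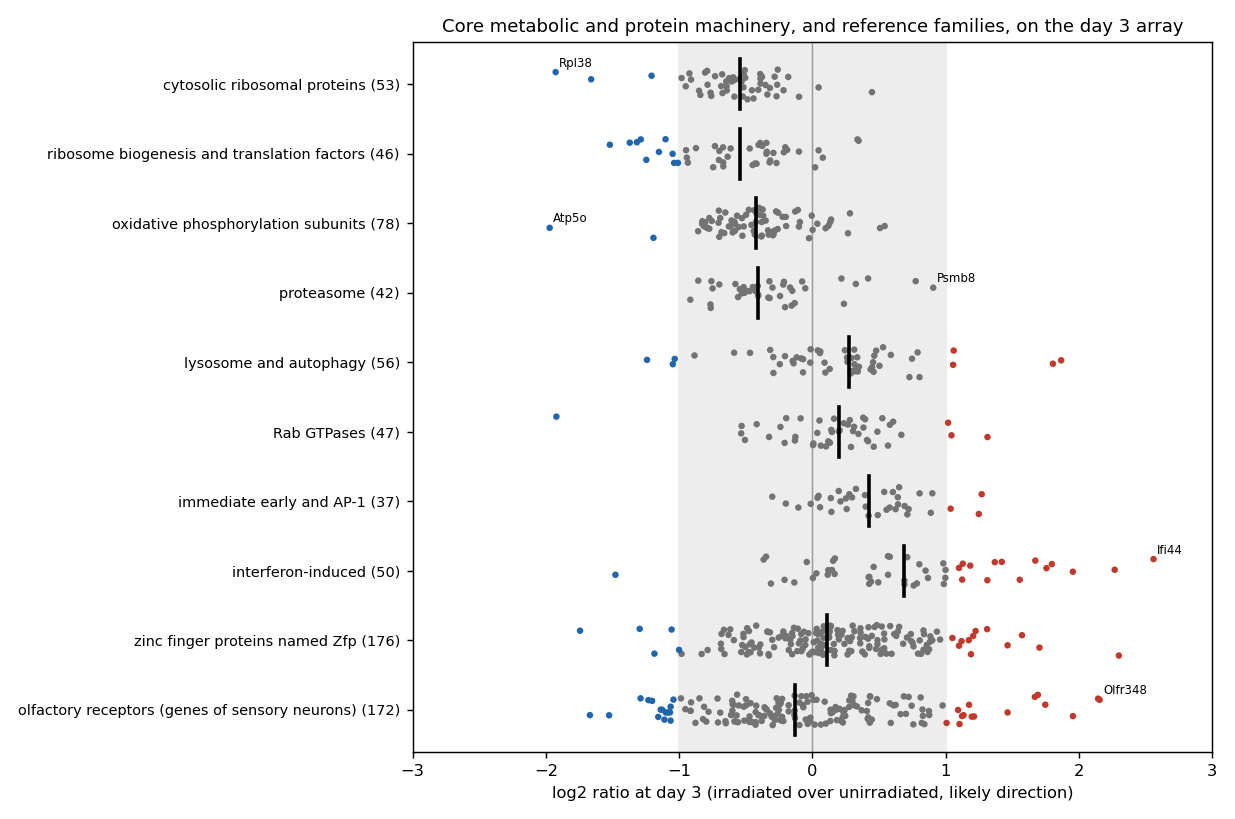
Log2 ratio at day 3 (x axis) of each measured gene of 10 lists of protein-making, energy, stress and reference families, 1 point per gene, with the number of genes in brackets and the median as a black bar. The grey band marks less than 2-fold. Ribosomal, oxidative phosphorylation and proteasome genes sit as blocks left of 0, and 30 of 172 olfactory receptor genes fall outside the band on both sides.

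Whether a gene had a ratio differed between lists, and no source used here gives the rule behind empty entries. Of all named genes 30.4% had none at day 3. The share was 73.7% for olfactory receptors, 62.5% for T and NK genes, 59.3% for B lineage genes and 43.8% for genes of all leukocytes. It was 4.88% for oxidative phosphorylation, 4 of 50 endothelial identity genes had none, and all 38 pericyte genes had a ratio. Of 247 genes over 4 at day 1, 32.4% had no ratio at day 3, against 3.55% of 7230 genes between -1 and 1. Conversely, 1604 genes had a ratio at day 3 alone, of which 240 were higher by 2-fold or more and 118 lower. Counts of members with a ratio therefore do not cover whole lists.

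With genes in 5 equal classes of annotated length, the median was -0.13 in the shortest class (up to 7175 bases), then -0.07, 0.01 and 0.04, and 0.13 in the longest (from 65523 bases). The share lower by 2-fold or more was 8.54%, 8.49%, 6.87%, 5.94% and 4.31% in the same order. The share higher by 2-fold or more was not graded, at 7.39%, 6.34%, 6.56%, 7.26% and 9.28%. Across chromosomes with at least 50 measured genes, medians ran from -0.08 on chromosome 11 to 0.11 on chromosome 18. The part of gene length in the other results was not tested.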

How the data were processed

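Two-colour array ratios of mouse bone marrow stromal RNA were taken as deposited. The deposited file holds a log ratio for each probe, and these were treated as log2. Base, numerator, scanner, normalisation and the filter behind empty entries are not given in the sources used here, and the authors' deposited median over probes was -0.0001 at day 3. Of 23473 probes, 15417 had a ratio at day 3. Genes were named from the platform annotation, with older symbols updated through RefSeq (GRCm38.p6): 12622 probes had a current symbol, 3947 an older one, 59 several possible genes and 3 none, and 6842 were unnamed. Probes of a gene were averaged and the gene median, 0.0162, was subtracted (Python 3.11.15, pandas 2.3.3). A gene counted as higher or lower at a log2 ratio of at least 1 in size. The arithmetic of this size rule was run on simulated data, with 200 genes planted well past 2-fold in noise narrower than the array's own spread. That run does not measure how often an unchanged gene passes 2-fold on 1 array. No intensities were used, so signal over background was not examined, and the number of arrays limits precision. The 89 gene lists, the motifs and the naming rule were chosen with earlier results of these data known. Named were the 25 highest and lowest genes, each list's core members and its 4 highest and 4 lowest, passing over clone names at the ends. The genes of the direction check and common reference genes were named besides. Alternatives were other zero points, size rules, probe summaries and gene sets.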

Additional observations from a re-analysis of the deposited data

Results flagged for a closer look

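Some genes were at least 2-fold on opposite sides of 0 on the arrays of day 1 and day 3. Over the 9800 genes measured on both, 86 were higher at day 1 and lower at day 3, and 11 the reverse. Of the other genes lower at day 3, 341 were within 2-fold at day 1 and 236 were lower. Of the other genes higher at day 3, 317 were within 2-fold at day 1 and 270 were higher. Among genes within 2-fold at day 3, 1325 were higher, 899 lower and 6315 within 2-fold at day 1. By these counts, a day 1 value past 2-fold on the opposite side was no more common among genes past 2-fold at day 3. The same day 1 side was at least as common among genes within 2-fold at day 3. The difference between the days was not tested, each time point has 1 array, and both arrays may share the unirradiated control. The values of the genes that the naming rule covers follow, first for dividing-cell genes. Day 3 and day 1 values were -4.03 and 1.09 for Nusap1, -3.61 and 1.32 for Mki67, -3.50 and 1.16 for Kntc1, and -3.27 and 1.01 for Cdk1. They were -3.10 and 1.03 for Ccnb2, -2.84 and 1.06 for Aurka, -2.67 and 1.39 for Nuf2, and -2.37 and 1.03 for Cdc20. Ube2c was at -1.51 after 1.49, Hmgb2 at -1.97 after 2.16 and H2az1 at -1.25 after 1.37. Cdkn3, a phosphatase of mitotic cells, was at -1.95 after 2.13 and the glycosylase Neil3 at -2.41 after 1.35. Granulocyte genes showed the same signs: Chil3 was at -2.67 after 8.28, Ncf1 at -2.22 after 6.21, Camp at -3.19 after 5.71, Ngp at -2.43 after 5.50, Ltf at -2.02 after 5.89, and S100a8 at -2.01 after 7.61. Ctsg was at -1.62 after 6.36 and S100a9 at -1.36 after 6.30. Among genes of several blood cell types, Rac2 was at -3.09 after 5.06, Ikzf1 at -1.88 after 2.59, Lyl1 at -1.75 after 1.53, Inpp5d at -1.38 after 3.09 and Pycard at -1.07 after 2.08. The B lineage genes Cd37 and Mzb1 were at -1.33 after 5.04 and at -1.16 after 1.81. The cytokine Osm was at -1.04 after 4.24, the chemokine Ccl22 at -1.40 after 1.23, the nuclease Isg20 at -1.48 after 1.98, the lysosomal enzyme Gla at -1.24 after 1.75 and the kinase Dyrk3 at -1.65 after 1.15. The leukocyte gene Coro1a was at -1.40 after 5.13, the eosinophil gene Prg2 at -2.47 after 3.21, and the platelet integrin Itga2b at -1.04 after 1.03. Adipoq was at 1.06 after -1.36 and the receptor Fgfr2 at 1.30 after -1.03, both lower at day 1 and higher at day 3. So were Ch25h at 1.26 after -1.33, Gsta4 at 1.23 after -1.10, the matrix protein Smoc1 at 1.17 after -1.32 and Rab23 at 1.04 after -1.12.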

How the results depend on the processing

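Counts of genes past the size rule were recomputed under 8 alternatives. With ribosomal protein genes at 0, 2665 genes were higher and 273 lower, or 90.7% higher among them. At 1.5-fold the counts were 2038 higher and 2000 lower, and at 3-fold 252 and 259. With the deposited zero, the density peak at 0, the median of probes, single-probe genes or genes measured on both arrays, both counts stayed within 1.5 times those reported. Of 89 list medians, 22 changed sign with ribosomal protein genes at 0 and 1, that of replication-dependent histones, over single-probe genes (0.06), and none did under the other zero points, the median of probes or genes measured on both arrays. No list median of at least 1 in size changed sign, and the zero points could not have changed one, as they moved values by at most 0.55. The 25 highest and 25 lowest genes were recomputed with the density peak at 0, ribosomal protein genes at 0 and the median of probes. They kept their signs under these 3. For the zero points this was fixed in advance, since each of these genes was at least 2.46 in size. Taking any listed promoter in place of the first, chosen after seeing the data, gave an E2F site in 29.3% of the lowest genes and 13.1% of all. No paired analysis was possible because each group has 1 array and the result comes from no test. Replicates could not be left out for the same reason.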

Other observations

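The lowest values of the day 3 array belong to probes that the annotation leaves unnamed. Of 6842 such probes, 3891 had a ratio, with 286 at least 2-fold higher and 291 lower, or 14.8%. Probe M400000660 was at -7.98 and M400011806 at -7.78, both below Car2, the lowest named gene, and they stood at -3.02 and -7.36 at day 1. The highest unnamed probe, M200012531, was at 3.40.

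Transporters gave some of the larger single values outside the groups above. Of 224 solute carriers, 25 (11.2%) were at least 2-fold higher and 19 (8.48%) lower, against 7.35% and 6.85% of all genes. The glutamine transporter Slc38a5 (-4.20), the mitochondrial carrier Slc25a21 (-2.77) and the amino acid transporter Slc43a1 (-2.39) were lowest, and Slc6a17 (2.09), Slc12a9 (1.70) and the thiamine transporter Slc19a2 (1.69) highest. Of 33 ABC transporters, the phospholipid transporter Abcb4 (-3.03) was lowest. The phosphatase Dusp26 (2.02) headed 24 dual-specificity phosphatase and Sprouty family genes, and the vascular potassium channel Kcnj8 was at 1.56.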
